A study of Rattus norvegicus with 26 samples.

Results

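Notch receptors, ligands and targets are described here across 2 rat multipotent adult progenitor cell (rMAPC) lines that were driven towards smooth muscle. The 10 genes are the receptors Notch1, Notch2, Notch3 and Notch4, the ligands Jag1, Jag2 and Dll1, and the target genes Hes1, Hey1 and Hey2. Each was found on the array by a probe whose gene name equals the gene's, in any case, and where a gene had several probes the brightest was used. They are 10 of 16334 named genes on the array, and Hey2 alone had a second probe.

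Total RNA was measured on 26 Agilent whole rat genome arrays, 1 per sample, labelled with the dye Cy3. The rMAPC lines are clones from bone marrow of female Fischer rats that express Oct4, Cl19 from a donor aged 3 weeks and 3c3 from an embryo of day 18. For differentiation both were kept in basal rMAPC medium with TGF-β and PDGF-BB, growth factors used to make smooth muscle. The study did this without serum, and its day 0 cells were undifferentiated. RNA was taken on days 0, 2, 4 and 6 (d0 to d6), with 3 arrays per line and day. Commercially obtained primary RNA filled 2 further arrays, which the labels call rat aortic RNA and the series calls primary smooth muscle cells; the study's methods name another supplier for it.

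The 8 rMAPC groups therefore differ by line and day, and strain, sex and tissue are shared. No untreated cells were measured at d2, d4 or d6. In a change from d0, growth factors, other culture conditions and time in culture therefore cannot be told apart. Each line is 1 clone, so line and donor age cannot be told apart. The study's supplement calls the 3 replicates of a group biological, while the labels do not say whether they were separate cultures, and p-values measure the spread between these samples. The arrays sit on 7 slides scanned on 3 days: each rMAPC slide carries 1 replicate of 1 line on all 4 days, while each line and the primary RNA had a scan day of its own. On every rMAPC slide d0, d2, d4 and d6 sit at positions 1, 2, 3 and 4, so a change over time is free of the slide but cannot be told apart from the position on it. A difference in level between the lines, or against primary RNA, cannot be told apart from the scan day.

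Levels are log2 of the scanner's background-corrected signal after the arrays were given the same distribution of values (quantile normalization), so 1 unit is a change by a factor of 2. A probe counts as well above background on an array when the scanner software says so, and this held for 52.7% to 61.4% of probes on Cl19 arrays, 43.2% to 57.1% on 3c3 arrays and 43.6% to 44.5% on primary arrays. The tested probes, 24442 in all, are those that reached this in some group on each of its arrays. A change "passed" when its p-value from limma, adjusted over all tested probes, was under 0.05. All 10 genes were tested, but Hey1 entered through the primary arrays alone, Jag1 through Cl19 d4, Cl19 d6 and primary RNA, and Hey2 through the same 3 groups. Jag2 entered through the d2, d4 and d6 groups of both lines, and not through d0 or primary RNA. Notch1 entered through the d0 and d2 groups of both lines alone. For those genes the filter itself asked for a high group. The number of arrays limits the precision: the median SD within a group was between 0.18 and 0.32.

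Several arrays stand apart from their labels or neighbours. The Cl19 d2 replicate 1 array lies nearer to the 3c3 d2 arrays, at root mean square log2 distances of 0.382, 0.538 and 0.428, than to the other Cl19 d2 arrays, at 0.917 and 0.876. The slide of 3c3 replicate 3 had a median negative-control signal of 62.5 to 79.0 where the other arrays had 44.9 to 48.0, and 43.2% to 51.8% of its probes were well above background. Changes of the 10 genes from d0, and differences between the lines, that gained or lost their call without that array or without that slide are named below.

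Notch receptors sit in the cell membrane and are bound by ligands of the Jagged and Delta-like families on neighbouring cells. Binding lets proteases, ending with gamma-secretase, cut the receptor, and the freed inner piece enters the nucleus, joins the DNA-binding protein RBPJ and switches on genes of the Hes and Hey families, which encode repressors. In the wall of arteries Notch3 is known as a receptor of smooth muscle cells and Jag1 as a ligand that endothelial and smooth muscle cells present.

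In Cl19, 7 of the 10 genes passed an F-test over the 4 days, where 54.3% of all tested probes did. In 3c3, 5 of 10 passed, where 50% of all tested probes did. Read against these backgrounds, neither count is a result about the 10 genes. By day in Cl19, 1 of 10 had passed against d0 at d2 (background 22.6%), 5 at d4 (47.3%) and 7 at d6 (52.2%). In 3c3 the counts were 1 at d2 (19.1%), 3 at d4 (37.0%) and 4 at d6 (48.2%).

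The changes past the test had these directions. At d6 in Cl19, 6 genes were higher and 1 was lower, and the median change of the 10 was 1.03. At d6 in 3c3, 2 were higher and 2 lower, with a median change of 0.11. Over all tested probes the median change at d6 was -0.20 in Cl19, with 22.0% higher and 30.3% lower, and -0.21 in 3c3, with 19.7% higher and 28.6% lower. The deposited values, which had no scaling between arrays, gave medians of 0.10 and 0.09, so the zero of the scale depends on the scaling. Taken relative to the median, the d6 changes of the 10 genes had the same sign in each line under quantile normalization, scaling to the 75th percentile, the deposited values and the normexp background correction, with the exceptions of Notch1 in Cl19 (-0.17, 0.01, 0.01 and 0.03) and Notch3 in Cl19 (0.03, -0.03, -0.03 and -0.06).

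**Figure D1:**
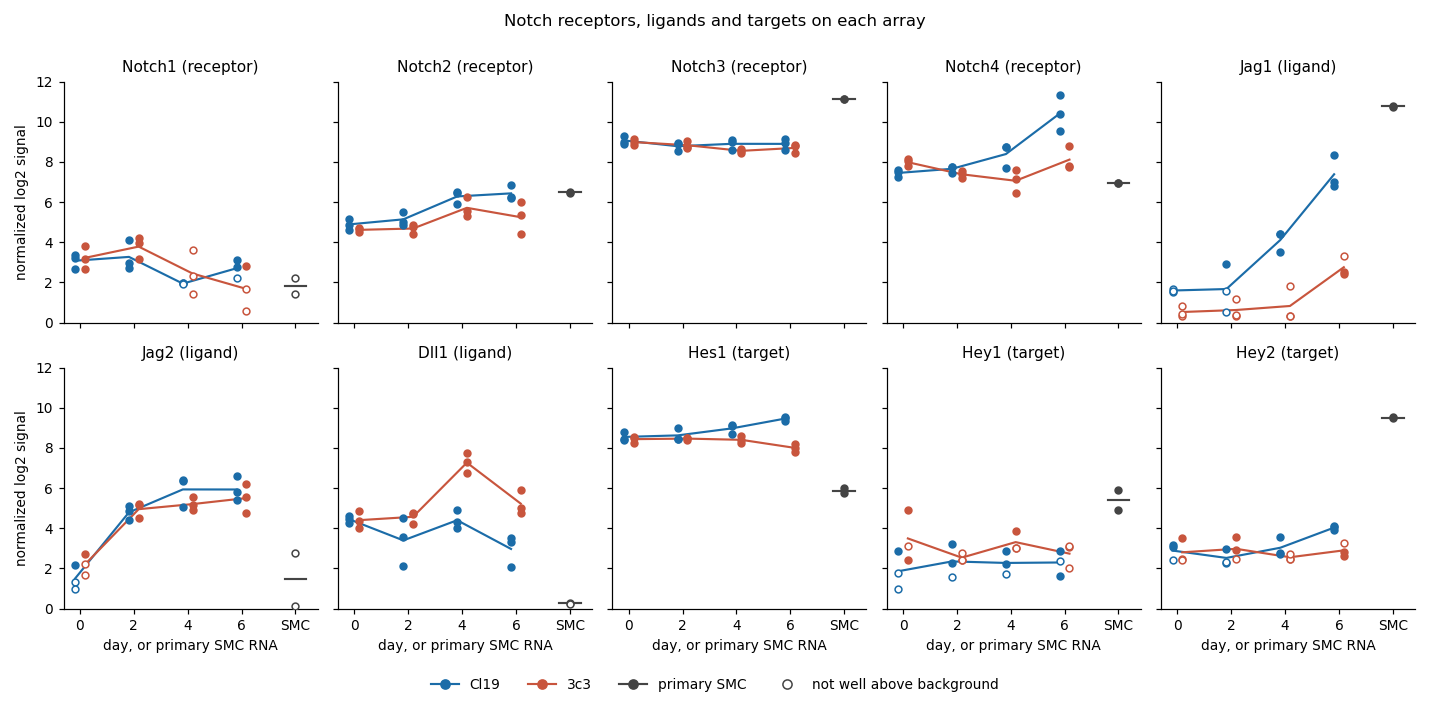
Level of each of the 10 genes (log2, quantile-normalized; vertical axis) by day, with 1 point per array and lines through the group means, for Cl19, 3c3 and primary RNA; open points mark arrays where the probe was not well above background. In Cl19, Notch4 reached a mean of 10.41 and Jag1 of 7.38 at d6, and in 3c3 Dll1 reached 7.26 at d4.

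Notch1, a receptor found in many tissues, was dim throughout. Its levels in Cl19 were 3.35, 2.69 and 3.20 at d0 and 2.24, 2.76 and 3.12 at d6, so the days overlapped. In 3c3 they were 3.15, 2.68 and 3.83 at d0 and 2.80, 1.65 and 0.58 at d6. The last of these, on the slide with the high background, is the lowest of all, and only replicate 1 at d6 was well above background. At d4 no array of either line reached that level. In 3c3 Notch1 fell by 1.54 at d6 (SE 0.54, adjusted p 0.0229, lower on 3 of 3 slides), while Cl19 did not pass (-0.37, adjusted p 0.597). Notch1 entered the tests only through the d0 and d2 groups, where it was higher, so the filter itself favoured a fall. At d4 in Cl19 the change of -1.14 missed the threshold (adjusted p 0.0910), and it passed without the 3c3 replicate 3 slide (0.0298) and under 3 of 11 other settings, with values from -1.22 to -0.10 and adjusted p from 0.00820 to 0.265. The 3c3 call at d6 rests on single arrays: it was lost without the replicate 3 slide (-0.69, adjusted p 0.293), without d0 replicate 3 (-1.24, 0.102), without d6 replicate 2 (-1.53, 0.0533) and without d6 replicate 3 (adjusted p 0.154). Over all 32 cases with arrays or slides left out the value ran from -2.14 to -0.69. It passed under 6 of 11 other settings, where values ran from -2.01 to -0.18 and adjusted p from 0.00245 to 0.824. The line difference, meaning the change from d0 in Cl19 minus that in 3c3, did not pass (1.17, adjusted p 0.363). In these bulk samples, fewer cells with a transcript and less RNA per cell cannot be told apart.

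Notch2, a receptor active in mesenchymal cells, was well above background on all 26 arrays. Its levels in Cl19 were 5.17, 4.62 and 4.88 at d0, 5.02, 4.87 and 5.53 at d2, 5.91, 6.44 and 6.49 at d4 and 6.20, 6.27 and 6.83 at d6. In 3c3 they were 4.69, 4.49 and 4.67 at d0, 4.77, 4.43 and 4.85 at d2, 5.33, 5.58 and 6.23 at d4 and 5.35, 4.39 and 6.00 at d6. In Cl19 every d4 and d6 array lies above every d0 and d2 array, and in 3c3 this holds for d4 but not for d6, where replicate 2 lay below the d0 value of its slide. Notch2 rose in Cl19 by 1.39 at d4 (SE 0.32, adjusted p 0.00126) and 1.54 at d6 (SE 0.32, adjusted p 3.92e-04, 2.91-fold), on 3 of 3 slides each. In 3c3 it rose 2.14-fold at d4 (SE 0.32 on the log2 scale, adjusted p 0.0103, 3 of 3 slides) and did not pass at d6 (0.63, adjusted p 0.110, 2 of 3 slides).

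The 3c3 calls for Notch2 depend on single arrays and on the setting. At d4 the call was lost without the replicate 3 slide (0.86, adjusted p 0.0671) and without d4 replicate 3 (0.84, 0.0706). It passed under 10 of 11 other settings and was lost under a t-test per probe (0.0673), with values from 0.44 to 1.52 and adjusted p from 0.00128 to 0.0673. At d6 a call was gained without d6 replicate 2 (1.06, 0.00582), without the replicate 2 slide (1.00, 0.0249), under the deposited values (1.04, 0.0142), with array weights (0.87, 0.0217) and with the replicate (slide) as a block in the fit (0.63, 0.0486), and over 11 settings adjusted p ran from 0.0142 to 0.370. Without the replicate 3 slide the d6 change was smaller, at 0.28 (0.542). The line difference at d6 was 0.91 (SE 0.45, adjusted p 0.195), and it passed only without 3c3 d6 replicate 3 (1.29, 0.0399).

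Notch3, the receptor best known from arterial smooth muscle, passed no test in either line. Its level lay between 8.54 and 9.31 on the 12 Cl19 arrays and between 8.45 and 9.15 on the 12 3c3 arrays. The d6 change was -0.17 in Cl19 (adjusted p 0.434) and -0.29 in 3c3 (adjusted p 0.177), and the F-test passed in neither line (adjusted p 0.540 and 0.170). In 3c3 at d4 the change of -0.44 missed the threshold (adjusted p 0.0544), although it was negative on 3 of 3 slides, and it passed under 2 of 11 other settings, the slide as a block (0.00899) and 75th percentile scaling (-0.47, 0.0360; range over all 11 0.00899 to 0.767). Leaving out arrays moved that p between 0.0415 and 0.207, under the threshold in 6 of 32 cases.

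Notch4, a receptor known from endothelium, separated the lines. Its levels in Cl19 were 7.62, 7.25 and 7.48 at d0, 7.47, 7.77 and 7.73 at d2, 7.69, 8.75 and 8.73 at d4 and 9.54, 11.32 and 10.37 at d6. In 3c3 they were 8.15, 7.78 and 8.02 at d0, 7.56, 7.18 and 7.41 at d2, 7.58, 6.46 and 7.14 at d4 and 8.77, 7.75 and 7.82 at d6. All 3 Cl19 d6 arrays lie above the other 9 arrays of the line and above all 12 of 3c3. In 3c3 the d2 and d4 arrays lie below every d0 array, and d6 overlaps d0.

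In Cl19 Notch4 rose by 2.96 at d6 (SE 0.38, adjusted p 1.86e-06, 7.79-fold, 3 of 3 slides), or 3.16 relative to the median probe. The slides gave 1.92, 4.08 and 2.89. In 3c3 the d6 change was 0.13 (adjusted p 0.803), and the line difference of 2.83 passed (SE 0.53, adjusted p 7.55e-04), as it did in all 32 cases with arrays or slides left out (highest adjusted p 0.0140). At d4 the Cl19 rise of 0.94 was at the edge (adjusted p 0.0453, and 0.0735 without the 3c3 replicate 3 slide, which enters through the shared spread) and passed in 12 of 32 such cases, with values from 0.66 to 1.38 and adjusted p from 0.00777 to 0.254. It passed under 7 of 11 other settings, with values from 0.73 to 1.17. The call was lost under normexp (adjusted p 0.0648), without the filter (0.0743), in a fit per line (0.0853) and under the t-test (0.117). At d4 in 3c3 the change of -0.93 missed (adjusted p 0.0600) and passed under 3 of 11 other settings: the slide as a block (0.0196), 75th percentile scaling (0.0410) and a fit per line (0.0499; range over all 11 0.0196 to 0.256). It also passed in 7 of 32 cases with arrays left out, with values from -1.18 to -0.63.

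Jag1, a ligand of the Jagged family, went from background at d0 to a bright signal at d6 in Cl19. Its levels there were 1.53, 1.68 and 1.58 at d0, 1.56, 2.94 and 0.51 at d2, 3.53, 4.39 and 4.41 at d4 and 7.02, 8.33 and 6.80 at d6. No d0 array was well above background, replicate 2 alone was at d2, and all were from d4 on, with no overlap between d0, d4 and d6. In 3c3 the levels were 0.83, 0.33 and 0.42 at d0, 0.33, 1.19 and 0.36 at d2, 0.33, 1.81 and 0.34 at d4 and 2.42, 2.52 and 3.33 at d6. There it was above background on no array until d6, and then on replicates 1 and 2 only.

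The Jag1 rise in Cl19 was 2.51 at d4 (SE 0.51, adjusted p 4.62e-04) and 5.79 at d6 (SE 0.51, adjusted p 1.94e-08), on 3 of 3 slides each. Against the background limit of the d0 arrays these are rises of at least 3.37-fold and at least 32.5-fold. The size depends on the background correction: normexp gave 0.31 at d4, which did not pass (adjusted p 0.175; range over 11 settings 7.40e-06 to 0.175, 10 passed), and 1.85 at d6, the lowest of 11 settings that all passed (5.10e-09 to 0.00280). In 3c3 the d6 rise of 2.23 passed (adjusted p 0.00135, 3 of 3 slides), with a bound of at least 1.06-fold. It passed in all 32 cases with arrays or slides left out (lowest value 1.89, without the replicate 3 slide, adjusted p 0.0331) and under 9 of 11 other settings. It was lost under normexp (0.19, 0.417) and a signal floor (0.38, 0.613), and over all 11 values ran from 0.19 to 2.44 and adjusted p from 8.08e-04 to 0.613. The line difference at d6 was 3.56 (SE 0.73, adjusted p 0.00156) and passed in all 32 leave-outs and under all 9 other settings, with values from 1.66 to 4.65. Since both lines were at background at d0, the size of that difference is not measured.

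Jag2, the other Jagged ligand, rose early and in both lines. Its levels in Cl19 were 1.34, 0.97 and 2.18 at d0, 5.09, 4.43 and 4.85 at d2, 6.39, 5.04 and 6.36 at d4 and 5.81, 6.59 and 5.38 at d6. In 3c3 they were 2.70, 1.66 and 2.20 at d0, 5.22, 4.49 and 5.13 at d2, 5.55, 4.89 and 5.16 at d4 and 6.22, 4.74 and 5.54 at d6. Every array from d2 on lies above every d0 array of its line, and at d0 only 1 of 3 arrays in each line was well above background.

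Jag2 was the only one of the 10 genes that passed at d2, and it did so in both lines. It entered the tests only through the d2, d4 and d6 groups, where it was high, so the filter itself asked for a high group. The d2 rise was 3.29 in Cl19 (SE 0.55, adjusted p 1.96e-04, 3 of 3 slides) and 2.76 in 3c3 (SE 0.55, adjusted p 0.00127, 3 of 3 slides). Without Cl19 d2 replicate 1 the first was 3.14 (adjusted p 9.47e-04), and without the 3c3 replicate 3 slide the second was 2.68 (0.0343). At d6 the rises were 4.43 (adjusted p 1.43e-06) and 3.31 (adjusted p 6.10e-05). Both passed under 11 of 11 other settings, but since d0 lies near background the sizes depend on the correction, with lowest values of 1.00 in Cl19 and 0.75 in 3c3. The line difference did not pass at any day, with values of 0.53 at d2, 1.42 at d4 and 1.12 at d6 and adjusted p of 1.00, 0.278 and 0.407.

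Dll1, a ligand of the Delta-like family, passed on different days in the 2 lines, as a rise at d4 in 3c3 and a fall at d6 in Cl19. In Cl19 its levels were 4.27, 4.44 and 4.61 at d0, 4.51, 2.13 and 3.54 at d2, 4.90, 3.99 and 4.30 at d4 and 3.49, 3.33 and 2.08 at d6. In 3c3 they were 4.84, 4.35 and 4.01 at d0, 4.23, 4.78 and 4.69 at d2, 6.74, 7.75 and 7.30 at d4 and 4.74, 5.01 and 5.92 at d6. All 3 Cl19 d6 arrays lie below every d0 array, and all 3 3c3 d4 arrays lie above every other rMAPC array of either line.

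In 3c3 Dll1 rose by 2.86 at d4 (SE 0.48, adjusted p 1.17e-04, 7.27-fold, 3 of 3 slides) and did not pass at d6 (0.82, adjusted p 0.167). The d6 value passed under 2 of 11 other settings, the deposited values (1.22, 0.0373) and array weights (1.12, 0.0427), with adjusted p from 0.0373 to 0.250 over all 11, and it was 0.28 without the 3c3 replicate 3 slide (0.760). In Cl19 the d4 change was -0.04 (adjusted p 0.954), and at d6 Dll1 fell by 1.47 (SE 0.48, adjusted p 0.0137, 3 of 3 slides). That fall missed the threshold without Cl19 d6 replicate 3 (-1.03, adjusted p 0.0948) and without the Cl19 replicate 3 slide (-0.94, 0.219), and it passed under 8 of 11 other settings, with values from -1.47 to -0.29 (adjusted p 0.00568 to 0.0933). At d2 the Cl19 change of -1.04 did not pass (adjusted p 0.130). Without Cl19 d2 replicate 1, the array that lies near 3c3, it was -1.60 and passed (0.0147), and without that whole slide it was -1.69 (0.0247).

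The line difference for Dll1 was -2.90 at d4 (SE 0.67, adjusted p 0.00566) and -2.29 at d6 (SE 0.67, adjusted p 0.0218). Both passed under all 9 other settings, with values from -2.96 to -1.43 at d4 and from -2.52 to -0.60 at d6. The first passed in all 32 cases with arrays or slides left out. The second was lost in 6 of them: without Cl19 d6 replicate 3 (-1.85, adjusted p 0.0670), the Cl19 replicate 3 slide (-1.76, 0.164), 3c3 d0 replicate 3 (-2.10, 0.0588), 3c3 d6 replicate 3 (-1.94, 0.0678), the 3c3 replicate 2 slide (-2.37, 0.0716) or the 3c3 replicate 3 slide (-1.75, 0.185).

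Hes1, a target gene that encodes a repressor, changed less at d6 than the ligands but with little spread. In Cl19 its levels were 8.79, 8.45 and 8.39 at d0, 8.43, 8.99 and 8.44 at d2, 8.67, 9.13 and 9.10 at d4 and 9.50, 9.35 and 9.53 at d6. In 3c3 they were 8.26, 8.51 and 8.53 at d0, 8.49, 8.51 and 8.38 at d2, 8.37, 8.57 and 8.26 at d4 and 8.21, 7.81 and 7.97 at d6. All Cl19 d6 arrays lie above all others of both lines, and all 3c3 d6 arrays lie below all others of both lines.

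Hes1 rose in Cl19 by 0.92 at d6 (SE 0.17, adjusted p 1.39e-04, 1.89-fold, 3 of 3 slides), in all 32 cases with arrays or slides left out. At d4 a rise of 0.43 was at the edge (adjusted p 0.0448, 2 of 3 slides) and passed in 15 of those 32 cases, with values from 0.29 to 0.70. It missed without the 3c3 replicate 3 slide (0.0727) and with the slide as a block (0.0527), and it passed under 6 of 11 other settings (adjusted p 0.00272 to 0.159). In 3c3 Hes1 fell by 0.44 at d6 (adjusted p 0.0396, 3 of 3 slides), which is -0.23 relative to the median probe. That call was lost in 7 of 32 cases: without d0 replicate 2 (-0.40, adjusted p 0.105), d0 replicate 3 (-0.39, 0.115), d6 replicate 2 (-0.35, 0.149), d6 replicate 3 (-0.43, 0.0874), the 3c3 replicate 2 slide (-0.31, 0.283), the 3c3 replicate 3 slide (-0.38, 0.213) or the Cl19 replicate 3 slide (-0.44, 0.0567). It passed under 8 of 11 other settings (adjusted p 0.0223 to 0.679). The line difference at d6 was 1.36 (SE 0.24, adjusted p 4.61e-04) and passed in all 32 leave-outs and all 9 other settings that give one.

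Hey1, a target gene related to Hes1, passed no test in either line. Its level ran from 0.95 to 3.23 on the Cl19 arrays and from 2.04 to 4.93 on the 3c3 arrays, and in no rMAPC group was it above background on all 3. The d6 changes were 0.44 (adjusted p 0.563) and -0.76 (adjusted p 0.305). The SE of each was 0.59, and the smallest change that could be detected at this signal was not tested.

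Hey2, the third target, rose late and in Cl19. Its levels there were 3.08, 2.43 and 3.15 at d0, 2.30, 2.28 and 2.98 at d2, 2.78, 2.73 and 3.57 at d4 and 4.06, 4.13 and 3.90 at d6. The d6 arrays lie above the other 9. The rise at d6 was 1.15 (SE 0.32, adjusted p 0.00464, 2.21-fold, 3 of 3 slides), and it was lost without the Cl19 replicate 2 slide (0.87, 0.0878). It passed under all 10 other settings, but the size of this dim signal depends on the background correction, with values from 0.16 (normexp) to 1.70. In 3c3 the 12 arrays lay between 2.43 and 3.55, and the d6 change was 0.10 (adjusted p 0.829). The line difference of 1.05 did not pass (adjusted p 0.123), and with the slide as a block it did (0.0214; range over 8 settings 0.0214 to 0.523). The second Hey2 probe did not reach that level on any of the 26 arrays, primary RNA included, so these values rest on 1 probe.

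The question of whether the lines respond alike was tested as a difference of changes, in which level differences between lines cancel. At d6, 4 of the 10 genes passed (Notch4, Jag1 and Hes1 higher in Cl19, Dll1 lower), where 17.4% of all tested probes did. At d4, a comparison added after the d4 values were seen, 3 passed (Notch4 1.87, adjusted p 0.0211; Jag1 2.22, 0.0460; and Dll1), where 14.4% of probes did. For Jag1 no d0 array of either line and no 3c3 d4 array was above background, so its d4 value is not read as a difference between the lines. Notch4 at d4 passed in 24 of 32 cases with arrays or slides left out (1.57 to 2.30) and Jag1 in 11 of 32 (1.82 to 2.81), and without the 3c3 replicate 3 slide both were lost (1.89, 0.0913 and 2.03, 0.177). Jag1 at d4 also passed under only 4 of 9 other settings, with values from 0.25 to 2.53 and adjusted p from 0.00934 to 0.647. At d2 limma called 0 of 10, and 0 had an unadjusted p under 0.05, where 0.323% of probes passed. Without Cl19 d2 replicate 1 the d2 count was again 0, while the probes past the test went from 79 to 856.

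Over the 24 rMAPC arrays, which share slides and days, the highest correlations among the 10 genes were Notch4 with Jag1 (Pearson r 0.85), Jag1 with Hes1 (0.75), Notch4 with Hey2 (0.72) and Notch2 with Jag1 (0.70), and Dll1 ran against Hes1 (-0.60) and Notch4 (-0.59). These are descriptions across arrays that fall into groups, with no p. Among other named genes, the 3 most like each member that passed the F-test in both lines were found over the same 24 arrays and 11388 genes. For Notch2 they were Casr, Tnrc6b and Cryzl1 (r 0.90 each). For Jag1 they were Gna15 (0.95), Tgfbi (0.95) and Cfap45 (0.94). For Jag2 they were Tgfb1i1 (0.97), Acaa1a (0.95) and Grip1 (0.95), and for Dll1 they were Zfp772 (0.91), Plod2 (0.91) and Snai1 (0.89).

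Primary RNA is a description only, since its 2 arrays had their own slide and scan day. Before scaling its values were lower overall than those of the rMAPC arrays, so the levels and folds below hold after quantile normalization, and deposited values are given where they place a gene otherwise. Notch3 was 11.12 and 11.13 there, above all 24 rMAPC arrays and 4.70-fold and 5.40-fold over Cl19 d6 and 3c3 d6. Its deposited values were 9.16 and 9.28, within the range of the rMAPC arrays (8.47 to 9.58). They lay under d0 replicate 2 of both lines (9.43 in Cl19 and 9.37 in 3c3). Jag1 was 10.74 and 10.78, 10.4-fold over Cl19 d6 and 256-fold over 3c3 d6, and its deposited values were 8.69 and 8.84, where Cl19 d6 replicate 2 had 8.82. Hey2 was 9.55 and 9.47, 44.5-fold and 97.6-fold over the same groups, and Hey1 was 5.90 and 4.90, with 3c3 d0 replicate 1 between them at 4.93. On the deposited scale Hey1 was 3.89 and 3.15, within the range of the rMAPC arrays (0.51 to 4.52). Hey2 alone lay above every rMAPC array on both scales, with deposited values of 7.37 and 7.37 against at most 4.83.

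Notch2 was 6.46 and 6.50 in primary RNA, within the range of Cl19 d6, while its deposited values of 4.41 and 4.55 lay under all 3 Cl19 d0 arrays. Notch4, at 6.95 and 6.93, was 11.1-fold lower than in Cl19 d6 and 2.26-fold lower than in 3c3 d6, and above 3c3 d4 replicate 2 at 6.46. Its deposited values of 4.84 and 4.92 lay under all 24 rMAPC arrays (lowest 6.84), so its distance from them depends on the scaling. Hes1, at 5.99 and 5.76, was lower by a log2 difference of -3.58 against Cl19 d6 and -2.12 against 3c3 d6. Notch1, Jag2 and Dll1 were well above background on neither primary array, so Jag2 was at least 4.45-fold lower than in Cl19 d6 and Dll1 at least 11.2-fold lower than in 3c3 d4.

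Other genes of the pathway came from a list of 57, of which 48 had a probe and 41 were tested. At d6 in Cl19, 23 of 41 passed (11 higher, 12 lower; 52.2% of all tested probes passed), with a median change of -0.01. At d6 in 3c3, 20 of 41 passed (11 higher, 9 lower; 48.2% of probes), with a median change of 0.09. In both lines 13 passed, 6 higher in both, 6 lower in both and 1 in opposite directions, and 11 passed in neither. The line difference at d6 passed for 10 of the 41, where 17.4% of probes did. Against these backgrounds the counts are not a result about the pathway. Dner, Itch, Mib2, Dtx1, Dtx3, Fbxw7, Maml2, Spen and Nrarp had no probe by name.

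By role, the proteases that cut the receptor gave 3 higher and 3 lower of 9 in Cl19, against 6 higher and 1 lower for 3c3. The sugar transferases, which modify the receptor's outer part, gave 3 lower of 4 in Cl19, against 2 for 3c3. The nuclear complex and its corepressors gave 5 higher and 3 lower of 16 in Cl19, against 4 and 4 for 3c3. Ligands and related genes gave 1 higher and 2 lower of 4 in Cl19 while limma called 0 for 3c3 (0 at an unadjusted p under 0.05). Genes of endocytosis and ubiquitin gave 1 higher of 5 in Cl19, against 1 higher and 1 lower for 3c3, and other targets gave 1 higher and 1 lower of 3 in Cl19, against 1 lower for 3c3. Over all tested probes at d6, 22.0% were higher and 30.3% lower in Cl19, and 19.7% and 28.6% in 3c3. With at most 16 genes per role, these counts are not a result about the roles. Whether the lines differ by role was not tested.

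A group of 5 of these genes passed at d6 in both lines with a change of at least 1 unit in the same direction. Aph1b, a subunit of gamma-secretase, rose by 2.54 in Cl19 and 1.39 in 3c3, and Psenen, another subunit, by 1.07 and 1.22. Tle2, a corepressor, rose by 2.56 and 2.18, and its relative Tle4 fell by 1.95 and 1.03. Hes2, a further Hes gene, fell by 1.65 in Cl19 and 2.74 in 3c3, to values near background at d6 (2 and 1 of 3 arrays above it). For Aph1b the line difference passed too (1.16, adjusted p 0.0254), and for the other 4 it did not.

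A few genes outside that rule were chosen after their values were seen. Tle1 was the 1 that passed in opposite directions: 1.18 in Cl19 and -0.89 in 3c3 (line difference 2.08, adjusted p 2.47e-04). Mfap5, a matrix protein reported to bind Jagged ligands, fell by 6.60 at d6 in Cl19 (adjusted p 2.99e-11). In 3c3 it was lower at d2 (-1.06, adjusted p 0.0369) and did not pass at d6 (-0.07, adjusted p 0.896; line difference -6.53, adjusted p 3.73e-08). Dlk2, a Delta-like relative, was at least 6.23-fold higher at d6 in Cl19 (3.61, adjusted p 8.15e-05) and was above background on no 3c3 array. It entered the tests only through Cl19 d4, Cl19 d6 and primary RNA, so the filter asked for a high group here too. Psen2, a catalytic subunit of gamma-secretase, fell by 1.66 in Cl19 (line difference -2.20, adjusted p 6.15e-05). Rbpj fell by 1.73 in 3c3 (adjusted p 0.0402) and missed in Cl19 (-1.04, adjusted p 0.210).

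**Figure D2:**
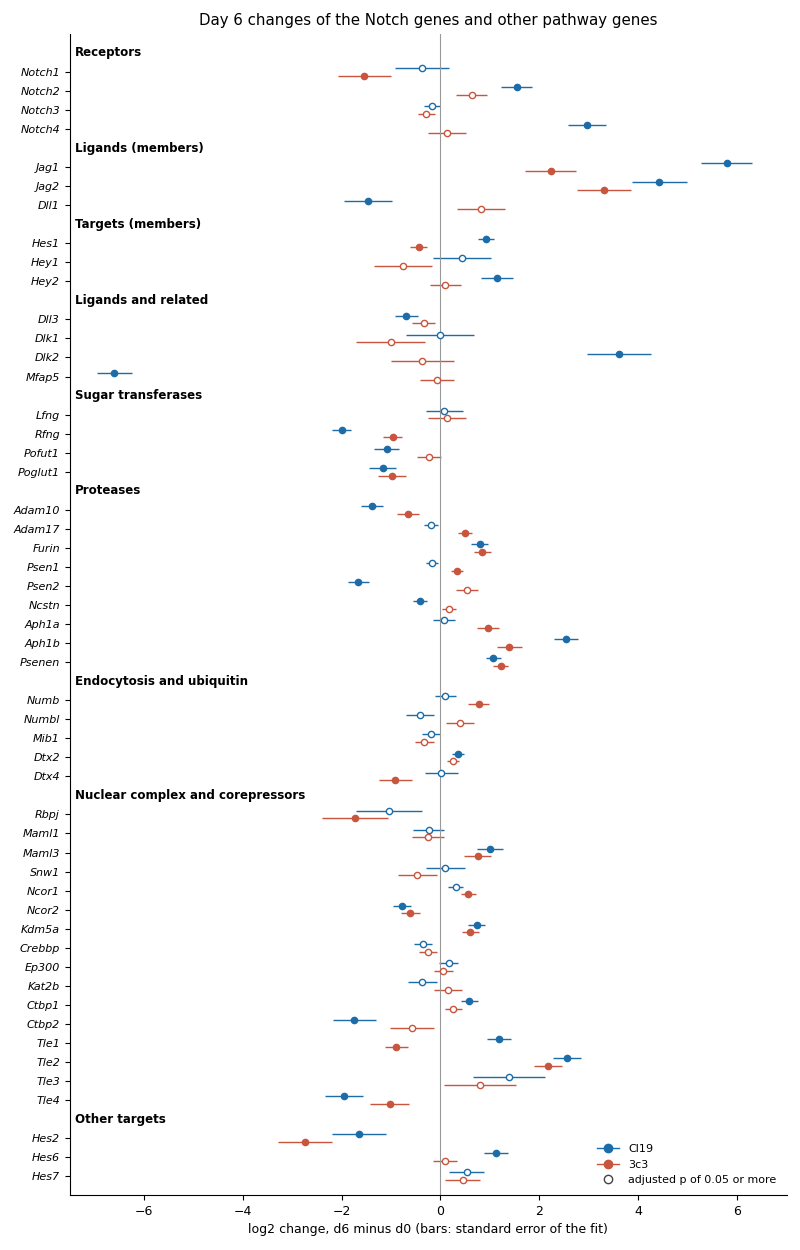
Change from d0 to d6 (log2, horizontal axis) of the 10 genes and of the 41 other tested pathway genes, grouped by role, in Cl19 and 3c3; points are fitted changes, bars their standard errors, and open points did not pass. Jag1 and Jag2 lie to the right of 0 in both lines, while Notch4 (2.96 and 0.13), Dll1 (-1.47 and 0.82) and Mfap5 (-6.60 and -0.07) lie apart.

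Markers of other cell types moved alongside, and their part in the Notch changes was not tested. Of 7 smooth muscle genes with a probe (Myh11 had none by name), 5 were higher at d6 in Cl19, and in 3c3 6 were higher. Over all tested probes 22.0% were higher and 30.3% lower at d6 in Cl19, and 19.7% and 28.6% in 3c3. Myocd was counted lower in 3c3, but it was above background on 1 of 3 arrays at d0 and 0 of 3 at d6 and entered the tests through primary RNA alone, so that call is not read. Their summed signal went from a mean of 2073 at d0 to 68476 at d6 in Cl19 and from 1619 to 35254 in 3c3, with Tagln the brightest at d6. It was 99257 in primary RNA, where all 7 were well above background. Whether that RNA came from aorta or from primary smooth muscle cells was not tested. Of 7 genes of undifferentiated rMAPC, 6 were tested. In Cl19 at d6, 5 of them were lower and 1 was higher, and 3c3 had 4 lower and 1 higher, beside the same shares of all probes. Pou5f1, which encodes Oct4, was lower at d6 in both lines, with means going from 10.28 to 1.13 in Cl19, where 1 of 3 d6 arrays was above background, and from 11.53 to 7.42 in 3c3. The size in Cl19 is therefore set by the background.

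Epithelial genes were high throughout the rMAPC arrays. All 5 rose by d6 in both lines, where 22.0% of all tested probes in Cl19 and 19.7% in 3c3 did. Their summed signal went from 140240 to 269921 in Cl19 and from 140515 to 238232 in 3c3, with Krt18 the brightest. It was 1470 in primary RNA, where Epcam, Cdh1 and Krt19 were not well above background. Fibroblast genes, 6 in all, gave 4 higher and 1 lower in Cl19, where 22.0% and 30.3% of all tested probes were. In 3c3 they gave 1 higher and 1 lower, where 19.7% and 28.6% of probes were, so that count is near the background. Their sum went from 5272 to 11744 in Cl19 and from 4950 to 2384 in 3c3. It was 140164 in primary RNA, with Col1a1 the brightest.

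Endothelial genes are given beside Notch4 and Dll1, since endothelium is known to express Notch genes, and a link between them was not tested. Of 10 listed, 9 were tested. In Cl19 5 were lower, where 30.3% of all tested probes were. In 3c3 1 was higher (Tie1, 1.54) and 1 lower (Pecam1, -2.11), where 19.7% and 28.6% of probes were. The summed signal, with Egfl7 the brightest, went from 2340 at d0 to 604 at d6 in Cl19. In 3c3 it was 1644 at d0, 2004 at d4 and 1719 at d6. At d4 in 3c3, where Dll1 was highest, the genes went different ways, and only their levels are given for that day. From d0 to d4 mean levels went from 2.16 to 6.64 for Kdr (0 and 3 arrays above background, 2.71 at d6), 5.02 to 5.84 for Vwf, 4.80 to 5.45 for Tie1 and 10.49 to 10.71 for Egfl7. They went from 5.82 to 2.15 for Pecam1, 4.88 to 3.85 for Tek, 3.05 to 2.77 for Cdh5, 3.96 to 3.80 for Esam and 4.27 to 4.07 for Sox18, while Emcn was at background. In primary RNA the sum was 5131. Egfl7 (12.28) and Sox18 (6.61) lay above every rMAPC group there, Vwf, Cdh5 and Esam were well above background on 1 of 2 arrays, and Pecam1, Kdr, Tek, Tie1 and Emcn on neither. Leukocyte genes, 6 listed, summed to between 130 and 201 in the rMAPC groups and 792 in primary RNA. There Ptprc was 5.11 and Cd74 9.50, Cd68 was 4.69 and below every rMAPC group, and Itgam, Lyz2 and Aif1 were not well above background. Of 4 tested, 1 was higher and 1 lower by d6 in Cl19, where 22.0% and 30.3% of all tested probes were. In 3c3 1 was higher, where 19.7% of probes were. With 4 genes, these counts are not a result about leukocyte genes.

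The sequences before the start of 9 of the 10 genes were available from RefSeq on the GRCr8 build, in 10 windows of 300 bases (250 before the start and 50 after). Hey1 is named only. They were searched on both strands for TGGGAA, the core that RBPJ is known to bind, and for the longer GTGGGAA, which contains it. TGGGAA was in the windows of 5 genes (Dll1, Hes1, Hey2, Notch3 and Notch4) and in 25.7% of all 33469 windows of that length. GTGGGAA was in those of 3 (Dll1, Hes1 and Hey2) and in 6.29% of all windows. The stretches of the 4 genes with 2 matches are shown because their levels changed, with each match to TGGGAA or its reverse complement TTCCCA in capitals. They run 5′ to 3′ along the gene's strand, at chr1:64993326-64993484 (minus) for Dll1, chr11:84213124-84213193 (minus) for Hes1, chr1:28640900-28641070 (plus) for Hey2 and chr20:4189135-4189322 (minus) for Notch4.
Dll1: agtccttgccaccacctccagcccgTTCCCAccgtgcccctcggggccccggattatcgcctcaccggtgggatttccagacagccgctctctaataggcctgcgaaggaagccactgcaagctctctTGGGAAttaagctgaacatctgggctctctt
Hes1: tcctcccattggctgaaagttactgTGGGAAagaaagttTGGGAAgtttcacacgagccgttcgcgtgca
Hey2: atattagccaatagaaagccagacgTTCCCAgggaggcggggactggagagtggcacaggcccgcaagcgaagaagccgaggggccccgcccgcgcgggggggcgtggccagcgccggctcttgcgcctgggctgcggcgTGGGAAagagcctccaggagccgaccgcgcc
Notch4: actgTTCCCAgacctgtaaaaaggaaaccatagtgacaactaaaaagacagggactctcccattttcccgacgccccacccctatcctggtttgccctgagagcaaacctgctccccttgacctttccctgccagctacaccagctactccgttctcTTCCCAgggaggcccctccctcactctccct

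In Hes1 the matches begin 123 and 109 bases before the start, on the same strand and close together. In Dll1 they begin at 185 and 82, in Hey2 at 175 and 60 and in Notch4 at 246 and 93, and these pairs are farther apart. Notch3 has a single match, after its start. A match is a description of letters and not of binding.

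The values rest on probes of 60 bases, and those of the ligand that rose first and of the target genes Hes1 and Hey2 are given so that the measured stretch can be seen.
Jag2: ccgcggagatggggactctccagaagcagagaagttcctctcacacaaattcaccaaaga
Hes1: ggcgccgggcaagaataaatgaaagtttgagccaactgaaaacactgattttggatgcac
Hey2: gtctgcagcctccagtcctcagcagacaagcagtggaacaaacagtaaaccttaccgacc
On the rn4 build that the array files use, they map to chr6:137909983-137910029, chr11:72605138-72605197 and chr1:27513781-27513840 in that order. The Jag2 interval is shorter than its probe in the files.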

How the data were processed

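Total RNA from 26 samples was measured on 1-colour arrays. The authors deposited scanner intensity files from Feature Extraction 10.1.1.1, and a series table in log2 that equals log2 of the background-corrected intensity within 5.2e-14, with no scaling between arrays. Its column medians ran from 2.97 to 3.99 (Cl19), 2.86 to 4.12 (3c3) and 1.62 to 1.85 (primary).

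From the intensities, 43379 gene features were quantile-normalized over 26 arrays, outlier features were left out, and features of a probe averaged, giving 41012 probes (263 on several features). The filter kept 24442 of these. A single limma fit (3.58.1, under R 4.3.3) held all 9 groups, and p-values were adjusted by Benjamini-Hochberg over the kept probes (threshold 0.05). Other steps used Python 3.11.15. Probe symbols came through accession (16506), name (3612) or synonym (1191), giving 21309 probes with a symbol; the GRCr8 gene table served for names only. The steps were tested on simulated data. Correlations of residuals between arrays of a slide were over 0.1 in 18 of 18 pairs in 3c3 and 16 of 18 in Cl19 (lowest 0.06).

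Every member was named; pathway genes were named when past the test at d6 in both lines, in the same direction, by at least 1 unit; genes alike in pattern were the 3 with the highest correlation over 24 arrays. Members and lists were chosen with earlier results of these data known. Alternatives covered scaling, the deposited table, background correction, the filter, a signal floor, the slide as a block, array weights, a fit per line, probe choice, a t-test (from the study's general statistics, not its array analysis) and leaving out each array or slide. No protein sequences were available. A further probe sequence is not reported here.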

Additional observations from a re-analysis of the deposited data

Results flagged for a closer look

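Several genes differed between the lines in their change from d0, by a test of that difference over all tested probes. Values are the Cl19 change minus the 3c3 change, in log2 units. Notch4 differed by 1.87 at d4 and 2.83 at d6, and Jag1 by 3.56 at d6, both higher in Cl19. Jag1 was at background at d0 in both lines and entered the tests only through groups where it was high, so the size of its difference is not measured. Its d4 value of 2.22 also passed the test, but 3c3 was at background on that day too, and it passed under only 4 of 9 other settings and in 11 of 32 cases with arrays or slides left out, so it is not read as a difference. Dll1 differed by -2.90 at d4 and -2.29 at d6, lower in Cl19. Hes1 differed by 1.36 at d6, higher in Cl19. The d4 test was added after the d4 values were seen. With arrays or slides left out, the call of Notch4 at d4 was lost in 8 of 32 cases and Dll1 at d6 in 6. Each line is a single clone. Which feature of the lines goes with these differences was not tested.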

How the results depend on the processing

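Over 921 values of the 10 genes under other settings, 877 kept their direction and their side of the threshold, 29 no longer passed, 15 newly passed and 0 reversed. With arrays or slides left out, 2773 of 2880 did so, 88 no longer passed, 19 newly passed and 0 reversed. A change past the test in neither setting was not read as having a direction; 31 and 61 such values had another sign. Where an arm was left with fewer arrays, the shared spread of the fit was used. Dim genes limit these results: signal near background follows the background correction.

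Of the counts of members, 75th percentile scaling gave 5 in 3c3 at d4. The normexp correction and no filter each gave 3 in Cl19 at d4. A signal floor gave 3 over time and 2 at d6 in 3c3. A fit per line gave 3 over time in 3c3. Array weights gave 2 in Cl19 at d2. A t-test, which the study's general statistics name, added after the data were seen, gave 2 members and 10 other pathway genes at d6 in 3c3. The replicate (slide) as a block gave 5 members in 3c3 at d4, and 6996 probes in 3c3 at d2 and 139 for the line difference at d2.

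Of the counts of probes, normexp gave 141 for the line difference at d2. Array weights gave 9698 in Cl19 and 8133 in 3c3 at d2, 5507 for the line difference at d4 and 1916 at d2. The t-test gave 3214 in Cl19 at d2 and 4809 in 3c3 at d4. In each case the cause was not tested.

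Leaving out arrays or slides moved the members past the test from 1 to 2 in Cl19 at d2, 3 to 5 in Cl19 at d4, 2 to 5 in 3c3 at d4, 2 to 4 in 3c3 at d6, 3 to 6 over time in 3c3 and 1 to 3 for the line difference at d4. Other pathway genes in 3c3 at d6 ran from 11 to 21. Probes ran from 2594 to 6081 in Cl19 and 2283 to 4978 in 3c3 at d2, 5487 to 9309 in 3c3 at d4, and for the line difference from 2728 to 4731 at d6, 2099 to 3991 at d4 and 1 to 856 at d2.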
